A study of Mus musculus with 4 samples.

Results

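The genes described here are 7 transcriptional regulators: the zinc-finger factors Gata2, Gata3, Gata4, Gata5 and Gata6, and the Fog cofactors Zfpm1 (Fog1) and Zfpm2 (Fog2). They were taken by symbol from a table of 25239 genes, and all 7 were present. Expression was measured by RNA sequencing of sorted hindlimb bud cells from mouse embryos (FVB strain, labelled genotype wild-type) at embryonic day 11.5. Every embryo carried a reporter inserted at H11, a neutral site in the genome, where a human copy of the ZRS limb enhancer carrying 404G>A acts on the hsp68 minimal promoter and mCherry, a red fluorescent protein. The 2 anterior libraries came from anterior mCherry-positive cells and the 2 central libraries from central mCherry-negative cells of the same reporter line. Position and reporter state therefore changed together and cannot be told apart. No library without the reporter was compared, and the labels do not say whether embryos were pooled or whether separate libraries came from separate litters, so p-values measure the spread between these libraries, which may be technical.

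GATA factors bind the DNA core GATA through zinc fingers. Fog proteins do not recognise that core themselves but bind the amino-terminal finger of GATA factors and bring in corepressors, among them the NuRD chromatin complex. In the limb bud Gata4 and Gata6 are known as anterior repressors of Shh, the posterior signal that the ZRS controls from within an intron of Lmbr1. Elsewhere Gata1, Gata2 and Zfpm1 act in blood formation, Gata2 also in endothelium, Gata3 in skin, sympathetic neurons and T cells, and Gata4 to Gata6 with Zfpm2 in heart, gut and mesothelium.

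Library totals were 30080925 to 33257383 counts, and 16476 to 17244 genes had at least 1 count. The limb mesenchyme markers summed to 2700 and 2740 CPM (counts per 1 M counts of the TMM-scaled library total) in the anterior libraries and 2280 and 2430 CPM in the central ones, with the hindlimb factor Pitx1 at 442 and 456 CPM on average. Other cell types were unevenly represented. The erythroid list summed to 3320 and 8460 CPM in the anterior libraries against 9.81 and 12.9 CPM in the central ones. Endothelial, surface ectoderm and myogenic lists summed to more in both central libraries than in either anterior library, and all 7 myogenic markers fell in anterior cells by edgeR (6 by DESeq2 and 6 by limma-voom, where Actc1 was not called). Of 8 macrophage markers 4 rose, of 8 limb mesenchyme markers 4 rose and 1 fell, and of 5 Schwann cell markers 3 were tested and 2 fell. In bulk RNA, fewer cells of a type and less RNA per cell cannot be told apart.

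Among the members, the Fog cofactor Zfpm1 had the highest level per kilobase of exon and was higher in anterior cells, Gata6 was 2.03-fold lower in anterior cells, and Gata4 was close to absent from both populations. Of the 7 members, 5 had enough counts to be tested and 2 of these, 1 in each direction, passed a threshold of 0.05 on the adjusted p-value from edgeR (quasi-likelihood test) and are termed called. Over all 14610 tested genes 22.9% were called, 10.7% higher and 12.3% lower in anterior cells, so with 5 members tested the count is a description only. The anterior and central values did not overlap for 3 of the 5 tested members, Gata3, Gata6 and Zfpm1, against 63.5% of all tested genes. The median log2 fold change (anterior over central, here and throughout) of the 5 tested members was -0.42, beside -0.01 over all tested genes.

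RefSeq start-site sequences (GRCm38.p6, the patch series of mm10) were at hand for 4 of the 7 members, with 2 starts for Gata2. The 250 bases before the start are shown for Zfpm1, the called member among them, and for both starts of Gata2, because reads counted per gene do not say which start was used. CpG dinucleotides are in capitals, and the strand is the gene's own, plus in each case. The Zfpm1 window lies at chr8:122281891-122282140, and the Gata2 windows at chr6:88193641-88193890 and chr6:88198414-88198663.
Zfpm1: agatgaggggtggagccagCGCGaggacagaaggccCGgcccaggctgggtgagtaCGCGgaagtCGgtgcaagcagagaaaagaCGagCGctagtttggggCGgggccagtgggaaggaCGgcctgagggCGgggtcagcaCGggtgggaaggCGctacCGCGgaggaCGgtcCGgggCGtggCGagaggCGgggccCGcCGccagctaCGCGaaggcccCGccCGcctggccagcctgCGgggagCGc
Gata2, upstream start: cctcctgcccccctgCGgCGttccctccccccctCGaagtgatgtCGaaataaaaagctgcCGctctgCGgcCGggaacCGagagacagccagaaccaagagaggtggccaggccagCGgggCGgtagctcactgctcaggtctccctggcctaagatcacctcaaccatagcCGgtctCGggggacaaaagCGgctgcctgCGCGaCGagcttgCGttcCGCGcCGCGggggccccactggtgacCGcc
Gata2, downstream start: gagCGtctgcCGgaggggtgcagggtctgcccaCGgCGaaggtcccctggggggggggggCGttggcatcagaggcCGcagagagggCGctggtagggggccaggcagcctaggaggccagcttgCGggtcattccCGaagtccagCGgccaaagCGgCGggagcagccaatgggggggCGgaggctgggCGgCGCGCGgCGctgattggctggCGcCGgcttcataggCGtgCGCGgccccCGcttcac
The Zfpm1 window holds 28 CpG and the Gata2 windows 22 and 24. The Gata3 and Gata5 windows hold 19 and 22, and 19.7% of the 32851 windows of this length in the table hold at least 19 (median 6). The GATA-binding letters searched on both strands were AGATAA, then TGATAA, then AGATAG, and finally TGATAG. They occur in none of the 5 member windows and in 26.5% of all windows. The absence of these letters from a short window says nothing about binding elsewhere.

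Levels of different genes were compared per length, as CPM per kilobase of exon (GENCODE M21 on GRCm38). In anterior cells Zfpm1 measured 5.35 ± 1.96 CPM per kilobase (SD, n = 2, here and below). Gata6 followed at 0.394 ± 0.101, Gata2 at 0.29 ± 0.143 and Gata3 at 0.178 ± 0.0388. Across the anterior libraries, values overlapped between Gata6 and Gata2 and between Gata2 and Gata3. Within each library the order was the same. Gata6, Gata2 and Gata3 measured 0.323, 0.189 and 0.151 in anterior replicate 1. In anterior replicate 2 they measured 0.466, 0.391 and 0.206. With n = 2 this order is a description only. Zfpm2 was lower, at 0.0493 ± 0.0192 CPM per kilobase, and Gata4 and Gata5 were at the bottom of the range. In central cells the order was Zfpm1 (3.13 ± 0.182), Gata6 (0.798 ± 0.0206), Gata3 (0.481 ± 0.244) and Gata2 (0.371 ± 0.0668), the latter pair overlapping. Below these, Gata5 (0.0827 ± 0.0371) and Zfpm2 (0.0667 ± 0.0211) overlapped across libraries, with Gata5 above Zfpm2 within each central library, and Gata4 was lowest. Averaged over the 4 libraries, Zfpm1 lay above 43.7% of tested genes per kilobase, Gata6 above 18% and Gata2 and Gata3 each above 12.2%. All 7 members were thus below the median tested gene, which measured 5.63 CPM per kilobase.

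**Figure D1:**
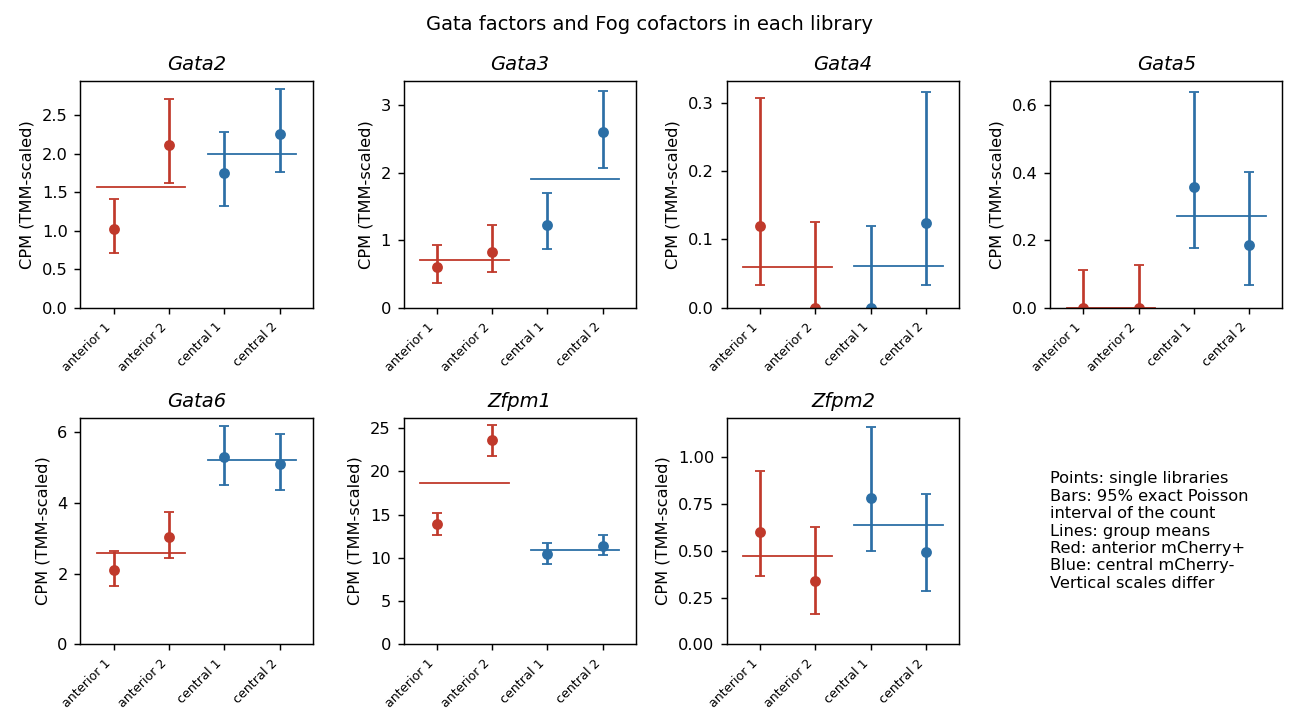
TMM-scaled CPM of each member in the 4 libraries (points, red anterior and blue central) with 95% exact Poisson intervals of the counts (bars) and group means (lines); vertical scales differ between panels. Gata6 is lower in both anterior libraries (2.1 and 3.03 CPM) than in both central ones (5.29 and 5.1 CPM), Zfpm1 is highest in anterior replicate 2 (23.6 CPM), and Gata4 is near 0 throughout.

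Gata4 is a factor of heart, gut and anterior limb mesenchyme, on chr14 (63198922 to 63271692, minus strand). It had anterior counts of 4 and 0 and central counts of 0 and 4. A count of 0 allows up to 0.102 CPM in anterior replicate 2 and 0.0974 CPM in central replicate 1, taking 3 counts as the limit. With group means of 0.06 and 0.0618 CPM, both under the limit of 3 counts, Gata4 was not tested and no fold is given. Gata4 was thus at the edge of detection in both populations, and a difference between them was not detectable at this depth.

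Gata5, the third factor of the heart and gut group (chr2, 180325133 to 180334699, minus strand), had 0 counts in both anterior libraries. The central libraries had 11 and 6 counts. All counts were therefore in central cells, where the level was 0.271 ± 0.121 CPM (SD, n = 2). That mean was 2.82 times the anterior limit of 3 counts per library (0.0961 CPM on average), which is not a lower bound on the fold. The exact Poisson interval of the count began at 0.178 CPM in central replicate 1, above that limit. In central replicate 2 it began at 0.068 CPM, below the limit. With all 4 libraries Gata5 did not pass the filter on low counts. Gata5 passed it when either anterior library was left out, and was not called in those fits. When genes with any count were kept, its edgeR adjusted p-value was 0.0876, in a fit that called 20.7% of 18700 genes. GENCODE places the antisense gene Gata5os across 258 exonic bases of Gata5, and Gata5os had 0 counts in every library.

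Gata6, on chr18 (11052064 to 11085635, plus strand), encodes the GATA factor whose loss in the limb is known to release anterior Shh expression. It had anterior counts of 70 and 89 (2.1 and 3.03 CPM) and central counts of 163 and 165 (5.29 and 5.1 CPM). Both central libraries lay above both anterior libraries, and the central pair was the tighter. The means were 2.57 ± 0.661 and 5.2 ± 0.138 CPM (SD, n = 2), which gave a log2 fold change of -1.02 ± 0.29 (SE; edgeR adjusted p-value 0.035). The 95% interval of that difference ran from -1.68 to -0.36. The call was lost without anterior replicate 1 (log2 fold change -0.77, adjusted p-value 0.161 by edgeR) and without central replicate 1 (-0.99, adjusted p-value 0.066).

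The antisense neighbour of Gata6 was also more often counted in central cells. Gata6os, a non-coding RNA transcribed away from Gata6, had anterior counts of 0 and 2 and central counts of 11 and 7, too few to test. Under its older name in GENCODE it overlaps Gata6 over 93 exonic bases. Since the strand setting of the counting was not given, reads in the overlap cannot be assigned, and their number is not known.

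Markers of other cell types that express Gata4 to Gata6 also moved. Of the 10 endothelial markers, 6 fell in anterior cells, none rose and 4 were not called by edgeR. None was higher at an unadjusted p-value under 0.05, or by DESeq2 or limma-voom. That list summed to 14.3 and 16.9 CPM in the anterior libraries against 43 and 50.6 CPM in the central ones, and no endothelial marker was at 0 in both libraries of a group. Of 6 mesothelium and body wall markers, 3 were tested and 2 fell. Wt1, the mesothelial factor, had 2 and 0 counts in anterior cells against 50 and 46 in central cells, and Tbx18, a trunk and proximal limb mesenchyme factor that dominates the list, measured 35.6 against 182 CPM. Lrrn4, also tested, had 24 and 4 counts in anterior cells against 17 and 24 in central cells and was not called. The mesothelial surface genes Upk3b, Upk1b and Msln were at 0 in both anterior libraries and in central replicate 1. They had 8, 2 and 2 counts in central replicate 2. The part of these cells in the Gata6 and Gata5 values was not tested.

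The tested genes nearest to Gata6 in profile, by root-mean-square distance of centred log2 CPM over the 4 libraries among 10605 genes of mean CPM 5 or more, were Samd4 (0.0882) and Pgf (0.109). Samd4, encoding an RNA-binding repressor of translation, measured 10.9 ± 2.47 CPM in anterior and 24.5 ± 0.37 CPM in central cells (SD, n = 2). Pgf, encoding placental growth factor, measured 4.02 ± 0.635 against 7.81 ± 0.621 CPM (SD, n = 2). With only 4 libraries, many genes can share such a profile.

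Gata2, a factor of blood progenitors, mast cells and endothelium (chr6, 88193891 to 88207032, plus strand), had anterior counts of 34 and 62 (1.02 and 2.11 CPM). The central libraries had 54 and 73 counts (1.75 and 2.26 CPM). The groups overlapped, since anterior replicate 2 lay between the central libraries. The log2 fold change was -0.36 ± 0.45 (SE; edgeR adjusted p-value 0.62), with a 95% interval of -1.39 to 0.67. Without anterior replicate 1 the sign turned, to 0.08.

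The receptor Kit, of mast cells and other lineages, measured 30.5 and 37.4 CPM on average in anterior and central cells. With all 4 libraries its log2 fold change was -0.29 and it was not called by edgeR. That outcome depended on the libraries kept, the log2 fold change being -0.51 without anterior replicate 1 and -0.46 without central replicate 1. The mast cell protease Cpa3 was listed at 0 in anterior cells and had central counts of 12 and 22 (edgeR adjusted p-value 0.0132, and too few to pass the filter without central replicate 2), whereas the mast cell genes Ms4a2 and Cma1 had at most 2 counts in any library. The megakaryocyte list held 7 genes, of which 5 were tested and none was called by edgeR, DESeq2 or limma-voom. At an unadjusted p-value under 0.05 edgeR gave 0 of them.

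Gata3 lies on chr2 (9857078 to 9890034, minus strand) and had anterior counts of 20 and 24 (0.6 and 0.818 CPM). The central libraries had 38 and 84 counts (1.23 and 2.6 CPM). The groups did not overlap, but central replicate 2 stood well above central replicate 1. The means were 0.709 ± 0.154 and 1.91 ± 0.962 CPM (SD, n = 2), which gave a log2 fold change of -1.43 ± 0.52 (SE) that was not called (edgeR adjusted p-value 0.0801). It was called when genes with any count were kept (edgeR adjusted p-value 0.0394) and without central replicate 1 (log2 fold change -1.87, adjusted p-value 0.0271). Without central replicate 2 the log2 fold change was -0.80 and the edgeR adjusted p-value 0.504.

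The summed markers of surface ectoderm, a known site of Gata3 expression, were also higher in central replicate 2 than in central replicate 1. The 11 markers summed to 51.1 CPM in central replicate 1 and 157 CPM in central replicate 2, against 11.1 and 10.8 CPM in the anterior libraries. Of these markers 10 fell in anterior cells and Krt8 was not called by edgeR, while limma-voom called 4 lower. The epidermal keratin Krt5 had anterior counts of 8 and 4 and central counts of 301 and 1346, and the epidermal regulator Trp63 had 4 and 4 against 134 and 753. Other markers differed less between the central libraries, such as Krt18 (366 and 472 counts) and Grhl3 (36 and 42). The sympathetic neuron genes Th and Dbh, of another lineage linked to Gata3, had at most 4 counts in any library. The part of ectoderm in the Gata3 values was not tested. GENCODE places 9230102O04Rik across 77 exonic bases of Gata3 on the same strand, and that gene had 3 to 7 counts in each library.

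Zfpm1, the Fog cofactor of Gata1 in red cell and platelet development (chr8, 122282141 to 122337251, plus strand), had anterior counts of 464 and 691 (13.9 and 23.6 CPM). The central libraries had 322 and 369 counts (10.5 and 11.4 CPM). Both anterior libraries lay above both central ones, but anterior replicate 1 was nearer to the central libraries than to anterior replicate 2. The means were 18.7 ± 6.82 and 10.9 ± 0.667 CPM (SD, n = 2), which gave a log2 fold change of 0.77 ± 0.23 (SE), or 1.71-fold (edgeR adjusted p-value 0.042). Without anterior replicate 2 the log2 fold change fell to 0.35 and the call was lost (edgeR adjusted p-value 0.337). The call was also lost with limma-voom (adjusted p-value 0.0732), with library size alone (edgeR, 0.0513) and with upper-quartile scaling (edgeR, 0.0535).

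The summed erythroid list was highest in the same library as Zfpm1. All 11 tested genes of the 12-gene erythroid list rose in anterior cells by edgeR, the adult globin Hba-a1 being at 0 in every library. There were 10 without anterior replicate 2, and limma-voom called 9, without Slc4a1 (adjusted p-value 0.0712) and Gata1. Gata1, the erythroid GATA factor that Zfpm1 binds, had anterior counts of 65 and 174 (1.95 and 5.93 CPM) and central counts of 18 and 38 (0.584 and 1.17 CPM). Its log2 fold change was 2.15 ± 0.58 (SE; edgeR adjusted p-value 0.0288), and this call too was lost without anterior replicate 2 (log2 fold change 1.15, adjusted p-value 0.28 by edgeR) and with limma-voom (adjusted p-value 0.0818). In the central libraries, where Zfpm1 had 322 and 369 counts, the tested erythroid genes ranged from Slc4a1 and Epb42, with at most 6 counts, to Alas2 (57 and 52), Epor (89 and 90) and Hbb-y (46 and 118). The part of blood cells in the anterior rise of Zfpm1 was not tested.

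**Figure D2:**
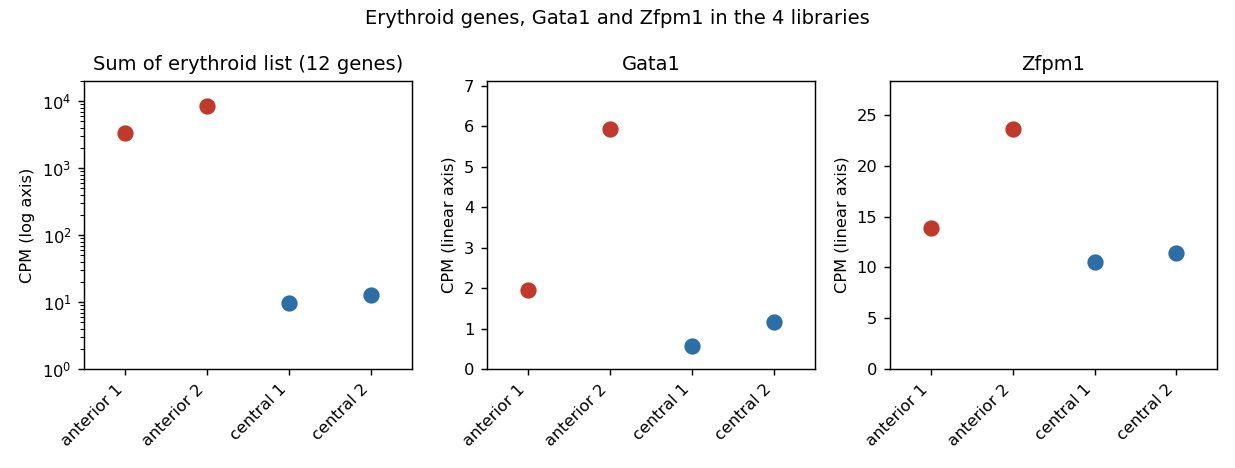
Summed CPM of the 12-gene erythroid list (log axis), and CPM of Gata1 and Zfpm1 (linear axes), in each of the 4 libraries (red anterior, blue central). All 3 quantities are highest in anterior replicate 2, and Zfpm1 stays at 10.5 and 11.4 CPM in the central libraries, where the erythroid sum is 9.81 and 12.9 CPM.

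By the same measure of profile, the genes nearest to Zfpm1 among 10604 were Cpox (root-mean-square distance 0.0688) and Cd59a (0.0799). Cpox, encoding an enzyme of heme synthesis, measured 48.5 ± 13.5 CPM in anterior and 29.6 ± 1.31 CPM in central cells (SD, n = 2). Cd59a, encoding a complement inhibitor of the cell surface, measured 12.9 ± 5.5 against 6.95 ± 0.00154 CPM (SD, n = 2). Without anterior replicate 2 neither was called (edgeR adjusted p-values 0.0644 and 0.408).

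Zfpm2, the Fog cofactor of Gata4 to Gata6 (chr15, 40655035 to 41104592, plus strand), had anterior counts of 20 and 10 (0.6 and 0.341 CPM). The central libraries had 24 and 16 counts (0.779 and 0.494 CPM). The groups overlapped. The log2 fold change was -0.42 ± 0.62 (SE; edgeR adjusted p-value 0.677), and its 95% interval of -1.83 to 0.98 shows how little these counts constrain it.

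**Figure D3:**
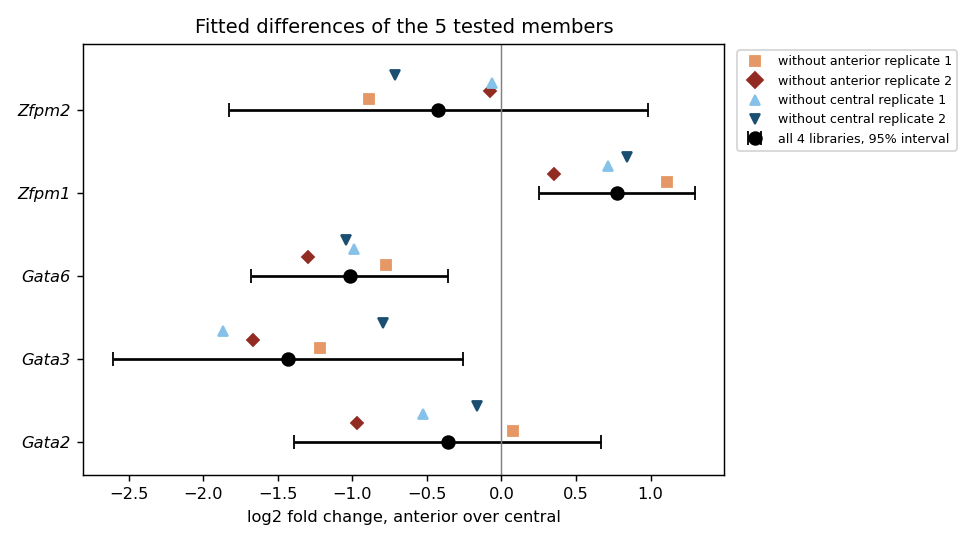
Log2 fold change, anterior over central, of the 5 tested members with all 4 libraries (black points, 95% intervals before adjustment for multiple tests) and with each library left out (coloured symbols). Zfpm1 drops from 0.77 to 0.35 without anterior replicate 2, Gata3 moves from -1.43 to -0.80 without central replicate 2, and Gata2 lies at 0.08 without anterior replicate 1.

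Other genes also encode GATA-type zinc fingers. Trps1, a repressor with a single such finger that is known in growth plate and limb development, had anterior counts of 5754 and 4882 and central counts of 5962 and 6169. Per kilobase it measured 12.7 ± 0.37 CPM in anterior and 14.4 ± 0.159 CPM in central cells (SD, n = 2), against 0.394 and 0.798 for Gata6. Its log2 fold change was -0.18 ± 0.06 (SE; edgeR adjusted p-value 0.0687), and it was called with upper-quartile scaling (0.0358) and without central replicate 2 (0.0466). Of the 10 listed genes of this kind, 2 rose, Gata1 and the NuRD subunit gene Gatad2a, none fell and 8 were not called by edgeR, a share near the 22.9% called over all tested genes. At an unadjusted p-value under 0.05 edgeR gave 5 higher and 1 lower, and after adjustment DESeq2 gave 3 higher and 0 lower and limma-voom 1 higher and 0 lower. Without anterior replicate 2 edgeR called 0 of them, and without central replicate 2 it called 5 higher and 1 lower.

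NuRD is the corepressor machinery that Fog proteins use. Of 13 NuRD genes, 1 rose, 1 fell and 11 were not called by edgeR, beside 22.9% called over all tested genes, and the list median was 0.10 beside -0.01. At an unadjusted p-value under 0.05 edgeR gave 3 higher and 1 lower, and after adjustment DESeq2 gave 2 higher and 1 lower and limma-voom gave 1 higher and 1 lower. Without anterior replicate 2 none was called higher by edgeR, and without central replicate 2 there were 3. Gatad2a measured 211 CPM in anterior against 162 in central cells and rose by 0.38 ± 0.07 (SE; edgeR adjusted p-value 0.00621), a call that was lost without anterior replicate 2 (edgeR adjusted p-value 0.0627). Chd3, encoding a remodelling ATPase of the complex, fell by 0.54 on the log2 scale, from 610 to 419 CPM (edgeR adjusted p-value 0.000645). Of the other Fog partners, the corepressor genes Ctbp1 and Ctbp2 were not called. The orphan nuclear receptor genes Nr2f2, whose product binds Zfpm2, and Nr2f1 fell in anterior cells, and the mitotic spindle gene Tacc3, whose product binds Zfpm1, rose (log2 fold change 0.24, adjusted p-value 0.0223 by edgeR), a call lost without either anterior library. Nr2f2 had anterior counts of 1466 and 1282 against central counts of 4919 and 5157, a log2 fold change of -1.86 ± 0.07 (SE; edgeR adjusted p-value 1.14e-06). Nr2f1 had 165 and 27 counts against 1748 and 1793, with a log2 fold change of -4.22.

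Partners of the blood GATA factors were mostly higher in anterior cells. Of 9 such genes, DESeq2 gave 6 higher and 1 lower, and limma-voom 5 higher and 1 lower. By edgeR 6 rose, 1 fell and 2 were not called, beside 10.7% higher and 12.3% lower over all tested genes. The list, which shares Tal1 with the erythroid list, had a median of 1.22 beside -0.01. Without anterior replicate 2, the library with most erythroid RNA, 4 rose. Tal1, the bHLH factor of the erythroid complex, had anterior counts of 329 and 733 and central counts of 27 and 20 (log2 fold change 4.54). Lmo2, the bridging LIM-only protein, had 2186 and 2336 against 488 and 485 counts, a log2 fold change of 2.23 ± 0.12 (SE; edgeR adjusted p-value 5.87e-06). The part of blood cells in these values was not tested. Gfi1b, a repressor of red cell and platelet progenitors, had 28 and 52 against 7 and 6 counts (log2 fold change 2.64), and lost its call without anterior replicate 2 or without central replicate 2. Fli1, an ETS factor of endothelium and megakaryocytes, fell by 1.24 on the log2 scale. The widely expressed cofactors Ldb1 and Tcf3 were not called.

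Of 13 partners of the cardiac GATA group, 11 were tested, 2 fell, none rose and 9 were not called by edgeR, beside 22.9% called over all tested genes. At an unadjusted p-value under 0.05 edgeR gave 1 higher and 3 lower, and after adjustment DESeq2 called 1 higher. Without central replicate 2 edgeR called 4 higher and 3 lower. Tbx5, the forelimb and heart T-box factor, had anterior counts of 0 and 2 against central counts of 82 and 44 (edgeR adjusted p-value 0.0024). Hand2, the posterior bHLH factor known to oppose Gli3 and activate Shh, had 7964 and 4944 counts against 10933 and 11118 (log2 fold change -0.78, edgeR adjusted p-value 0.00402). The heart factor Nkx2-5 had 0 counts in every library. Smad4, Ep300, Srf and the 3 Mef2 genes were not called by edgeR with all 4 libraries and the default filter. Smad4 was called higher by DESeq2 (adjusted p-value 0.0418) and when genes with any count were kept (edgeR adjusted p-value 0.0481). Smad4, Ep300 and Srf were among the genes called higher without central replicate 2.

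**Figure D4:**
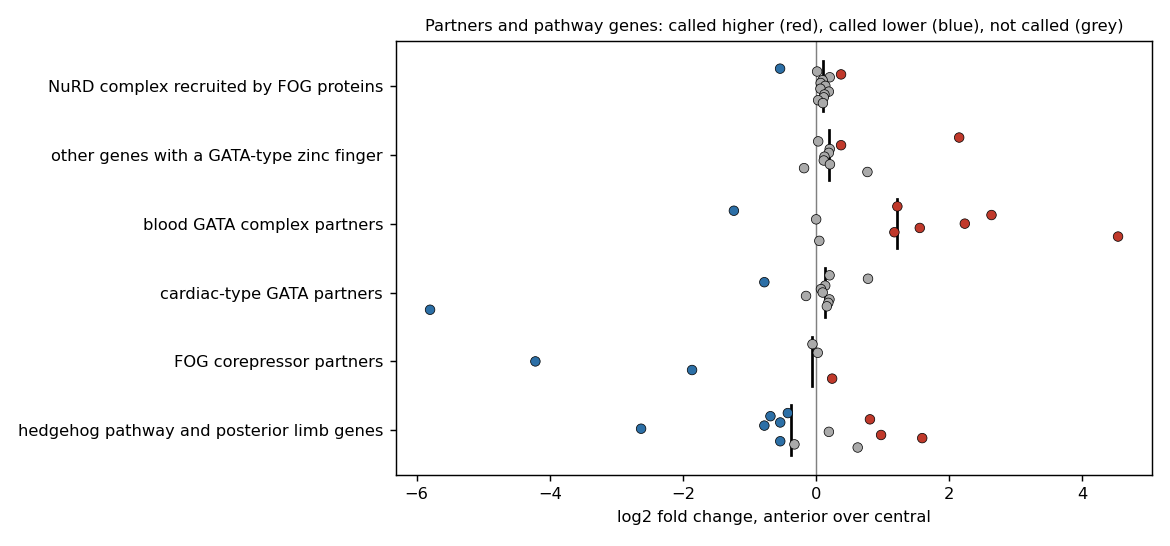
Log2 fold change, anterior over central, of the tested genes of 6 partner and pathway lists (points; red called higher, blue called lower, grey not called; black bars are list medians). NuRD genes cluster near 0 (median 0.10), blood GATA partners lie mostly to the right (median 1.22), and the hedgehog and posterior list has calls on both sides.

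The hedgehog and posterior limb list held 12 genes, of which 3 rose, 6 fell and 3 were not called by edgeR. Over all tested genes 10.7% were called higher and 12.3% lower, and the list median was -0.37 beside -0.01. DESeq2 and limma-voom also gave 3 higher and 6 lower. Of the genes that fell, Gli1 lost its call without anterior replicate 2, and Grem1 without anterior replicate 1 or central replicate 2. Shh itself was not called. It had anterior counts of 913 and 344 (27.4 and 11.7 CPM) and central counts of 408 and 394 (13.2 and 12.2 CPM). The log2 fold change of Shh was 0.63 ± 0.32 (SE; edgeR adjusted p-value 0.203). Without anterior replicate 2 it was 1.11 (edgeR adjusted p-value 0.00032) and without anterior replicate 1 it was -0.11 (0.785). Gli3, whose repressor form is known to act with Gata6 in anterior mesenchyme, rose by 0.81 ± 0.09 (SE; edgeR adjusted p-value 0.00034), while Gata6 fell. The hedgehog inhibitor Hhip fell by 2.63 on the log2 scale, and the distal posterior gene Hoxd13 rose by 1.59.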

How the data were processed

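The authors deposited 1 table of whole-number read counts per gene symbol, not normalized, with 4 library columns that were matched to sample titles by domain and number. STAR 2.7.9a, HTSeq, DESeq2 and the build mm10 are named per the submitters' processing notes, without their settings. The annotation and the use of strand are not given in the sources used here. Even numbers made up 72.8% to 75.6% of counts from 1 to 10, a pattern that counting both mates of a pair can leave. How mates were counted is not given in the sources used here. If both were, depth in fragments is lower than in counts, and intervals and limits, which cover counting error only, are too narrow.

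Counts were analysed in R 4.3.3 with edgeR 4.0.16: default filterByExpr (14610 genes), TMM scaling, quasi-likelihood F test with 2 residual degrees of freedom, Benjamini-Hochberg adjustment over all tested genes, threshold 0.05. SE is the absolute log2 fold change divided by the square root of F, and 95% intervals use the moderated degrees of freedom. CPM values are TMM-scaled. The 95% intervals of single counts are exact Poisson, and the limit for 0 is 3 counts. Alternatives used DESeq2 1.42.0 and limma 3.58.1. Exon lengths came from GENCODE M21, which held 24366 of the table's symbols, and start-site sequences from RefSeq. Same-numbered libraries did not deviate together across genes (Pearson 0.0463). Replicates differed beyond sampling noise (chi-square per degree of freedom on halved counts 16 in anterior, 8.98 in central), so none were merged.

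The members, 11 cell type marker lists and 6 partner lists were chosen with earlier results of these data known. All members were named. Also named were the 2 genes nearest in profile to each called member (mean CPM at least 5, log2 with prior count 2), and, from the lists, up to 3 called genes with the largest change and genes a result turned on. Other list genes with their values, such as Krt5, Upk3b and Ctbp1, were named after their values were seen. Some listed genes are not reported here.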

Additional observations from a re-analysis of the deposited data

How the results depend on the processing

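The fit was repeated with 14 alternatives. Between 2009 and 3697 genes were called when 1 library was left out, the lowest without anterior replicate 2, against 3351 with all. In those fits a lone library is assumed to vary like the other group. In the same fits Gata2 ranged from -0.97 to 0.0793 on the log2 scale, Gata3 from -1.87 to -0.80, Gata6 from -1.30 to -0.77 and Zfpm1 from 0.35 to 1.11. The Gata5 difference, anterior minus central, ranged from -0.356 to -0.184 CPM. Gata3 was called without a filter (-1.43). Zfpm1 was not called with library size alone (0.74), upper-quartile factors (0.74) or limma-voom (0.70). The cause was not tested. Zfpm2 kept its direction and was not called in the 12 fits that included it. A mean count of at least 50 left out Gata3 and Zfpm2, and halved counts left out Zfpm2. Gata4 and Gata5 have no value in the blocked, limma-voom, DESeq2 and mean-count fits. Replicate numbers are shared between groups by title only. The replicate block gave 3586 called genes and changed no member's call: Gata6 -1.04 (edgeR adjusted p-value 0.0222), Zfpm1 0.74 (0.00864), Gata3 -1.36 (0.0742). Of 125 tested list and profile genes, 74 were called. Of these, 52 kept the call in every fit that included them, and none of the 74 reversed. Fits whose filter left a gene out were not counted for that gene. No scaling moved the median of all genes by over 0.1, but the share of calls that were higher in anterior cells, 46.5%, was 40.3% with library size alone and 39.1% with upper-quartile factors. With all 4 libraries Gata4 and Gata5 had too few counts to pass the filter. Gata5 passed it when either anterior library was left out, and was not called in those fits.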
